A study of Oreochromis niloticus with 3 samples.

Results

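The ends of the salinity range were compared in the hepatopancreas of Nile tilapia (Oreochromis niloticus): fish kept in fresh water (0 psu) against fish kept at 16 psu, across all genes that reached 10 counts in either library. Of 29605 genes in the count table, 16267 met this rule. Each salinity was represented by 1 RNA-Seq library, made from the pooled RNA of 8 healthy fish, so no difference had a replicate check and no p-value was computed. The fish of both groups were of the same stock, were fed the same commercial diet and were reared in 3 tanks per salinity. By the study's methods, feeding was to apparent satiation, and the fish of all tanks were fasted before sampling. The 16 psu fish were brought to their salinity by 4 psu per day and then held for 5 weeks according to the sample labels, whereas the 0 psu fish stayed in fresh water. The methods of the study give a longer rearing period than the labels. Nothing in the labels tells which fish of a pool came from which tank, nor their sex. A pool gives 1 value for all of its fish, so the spread between fish and between tanks is unknown. A library of the same series from 8 psu was used only for counts set side by side.

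The hepatopancreas of tilapia joins liver tissue with exocrine pancreas. Hepatocytes make plasma proteins and lipoproteins, turn dietary glucose into fat, and synthesise sterols, while acinar cells make digestive enzymes. Nile tilapia are euryhaline freshwater fish, and gills, intestine and kidney do most of the salt transport. In the liver, feeding and insulin favour glucokinase and the lipogenic enzymes, and fasting, glucagon and cortisol favour gluconeogenesis.

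Counts summed to 14627514 at 0 psu and 16112951 at 16 psu. After scaling by the TMM method, 1 count corresponded to 0.0720 CPM (counts per 1000000 scaled counts) at 0 psu and to 0.0589 CPM at 16 psu, and the limit that a count of 0 allows, 3 counts, to 0.216 and 0.177 CPM. A gene was called higher or lower at 16 psu when the ratio of its CPM plus 0.5 reached 2-fold. Values of single genes are plain ratios of CPM with an exact (Clopper-Pearson) 95% interval, which covers counting error only, and medians of gene lists are on the log2(CPM + 0.5) scale, which understates the change of low genes. The 10 genes with the most counts held 22.8% of the counts at 0 psu and 21.9% at 16 psu, and 8 genes were in both sets of 10.

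Markers of liver and exocrine pancreas were high in both libraries. The 20 measured hepatocyte markers summed to 88304 CPM at 0 psu and 89341 CPM at 16 psu, with 1 of them called lower, the liver fatty acid binding protein gene fabp10a. The hemopexin gene hpxa alone held 38570 and 42550 CPM of these sums. The list median, in which each gene has equal weight, was 0.16. The 12 exocrine pancreas markers summed to 16093 and 19254 CPM, with 1 called lower, the elastase gene ela3l. Insulin (ins) was at 0 counts in both libraries, and only 5 of 21 islet loci reached 10 counts. Markers of blood cells, leukocytes, endothelium, bile duct and adipose tissue had 0 of 12, 1 of 19, 1 of 17, 0 of 6 and 2 of 9 measured loci called, respectively, where 11.2% of all genes measured were called. In a bulk library, fewer cells of a type and less RNA per cell cannot be told apart.

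Skeletal muscle markers were more abundant in the 16 psu library. Of 39 measured loci, 23 were higher and 3 lower at 16 psu, where 5.86% of all genes measured were called higher and 5.36% lower. Their median log2 fold change was 1.16, or 1.28 with genes at 0 counts in a library set at their bound, against 0.01 over all genes. Skeletal alpha-actin (acta1b) had 62 counts at 0 psu and 724 at 16 psu, a log2 ratio of 3.26 (95% counting interval 2.88 to 3.65). The muscle creatine kinase gene ckmb had 27 and 364 counts, and the fast myosin light chain gene mylz3 had 21 and 334. Calsequestrin (casq1a), the calcium store of muscle, was at 0 counts at 0 psu and at 50 counts at 16 psu, at least 13.6-fold higher. The sarcoplasmic calcium pump gene atp2a1l, which the list did not hold, had 3 and 225 counts, a ratio of 61.3 (log2 interval 4.37 to 8.23). The calcium pump gene on the list, atp2a1, went the other way, with 13 and 3 counts. It was 1 of the 3 loci called lower, with myom1 (47 and 23 counts) and mybpc1 (19 and 2). Myoglobin (Mb) and eno3, whose counts dominated the list, had 58477 and 51597 counts and 13158 and 27629 counts. Without these 2 loci the summed level of the list was 53.0 CPM at 0 psu and 195 CPM at 16 psu, and 7 of the 64 loci of the list were at 0 counts in both libraries.

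Genes of the digestive tract lining were in part more abundant in the 0 psu library. Of 10 measured enterocyte markers, 5 were lower at 16 psu and 0 higher, with a median of -1.43, or -1.65 with genes at 0 counts set at their bound. Of these 5, fabp2, slc15a1b, mep1b and apoa4a reached 10 counts only at 0 psu and were measured through that library alone. The intestinal fatty acid binding protein gene fabp2 and the peptide transporter gene slc15a1b each had 23 counts at 0 psu and 0 at 16 psu, so that each was at least 9.38-fold lower. The brush border protease meprin (mep1b) had 48 and 3 counts, whereas a second meprin locus, mep1bb, had 19 and 41, within 2-fold. Enteropeptidase (tmprss15), the duodenal activator of trypsinogen, had 216 and 0 counts, at least 88.1-fold lower, and the stomach protease gene pepsin had 609 and 0 counts, at least 248-fold lower. The 2 loci that the stomach list matched were the receptor genes cckbra and cckbrb, both at 0 in both libraries. No locus matched its other symbols, pga and atp4a among them, so the list says little of stomach tissue. The fat-responsive apolipoprotein genes apoa4b and apoba, which fish liver also expresses, dominated the list. Without them it summed to 19.5 CPM at 0 psu and 6.71 CPM at 16 psu, and 0 of its 8 remaining loci reached 100 counts. The part that muscle or gut RNA had in the results below was not tested.

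**Figure D1:**
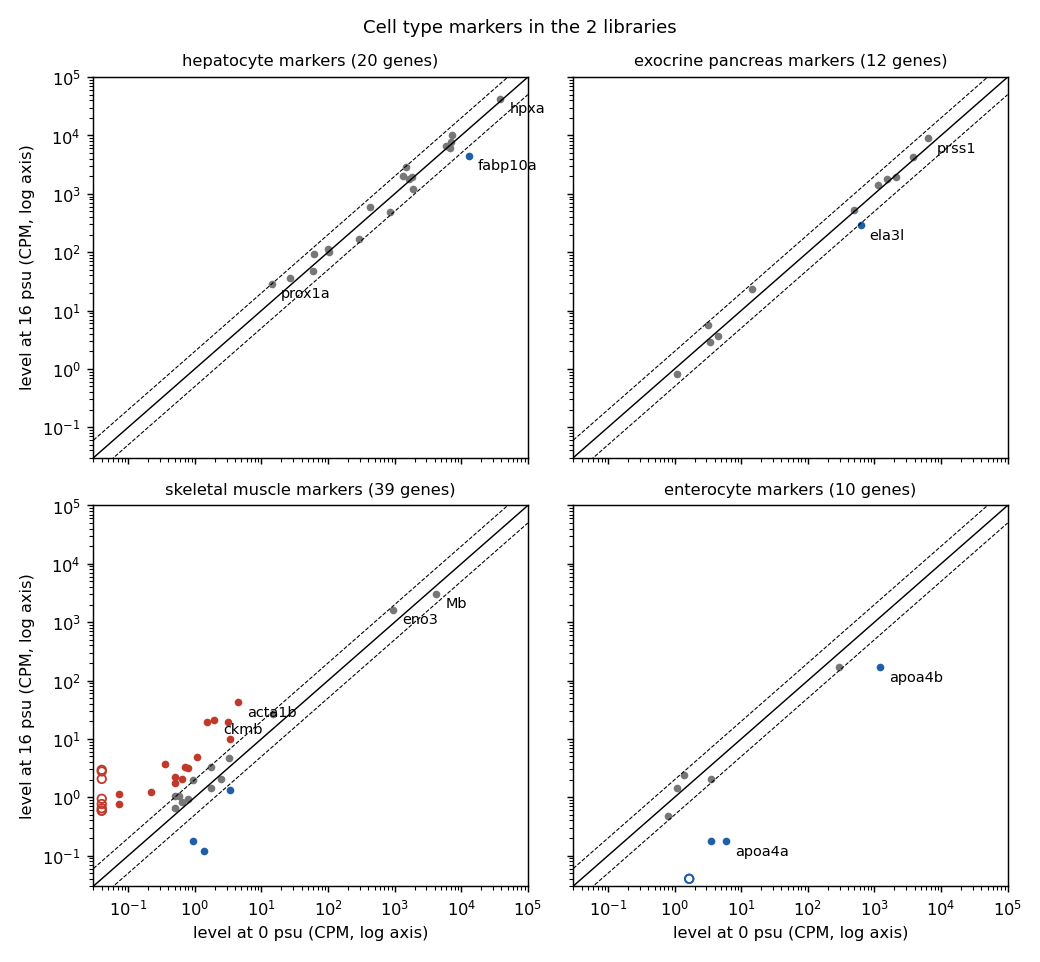
Levels in CPM (log axes) at 0 psu (x) and 16 psu (y) of the measured markers of 4 cell types, 1 point per gene. The solid line marks equal levels and the dashed lines 2-fold differences; red genes were called higher and blue genes lower at 16 psu, and open circles are genes with 0 counts in 1 library, drawn near the edge. Hepatocyte and pancreas markers lie along the solid line with 1 gene each called lower, whereas 23 of 39 muscle markers were called higher and 5 of 10 enterocyte markers lower. Part of the called muscle and enterocyte markers reached 10 counts only in the library where they were high.

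Across the whole transcriptome 954 genes were called higher and 872 lower at 16 psu, together 1826 genes or 11.2% of the genes measured, and 69.4% of genes differed by less than 1.5-fold. Larger differences were few: 114 genes were at least 4-fold higher and 98 at least 4-fold lower, and 11 were at least 16-fold higher and 11 at least 16-fold lower. The split depended on the scaling: by total counts every plain log2 ratio moved up by 0.15, and values with 0.5 CPM added moved less at low levels. The median of all genes went from 0.01 to 0.14. By total counts 1243 genes were higher and 665 lower, so that 65.1% of the calls were higher against 52.2% with TMM. Calls were most frequent among low genes, 21.2% of those with a mean of at most 1 CPM against 6.52% of those between 10 and 30 CPM and 14.9% of those between 100 and 1000 CPM. The median log2 fold change ran from 0.22 among the former to -0.16 among genes above 1000 CPM. Among the 8159 genes with at least 100 counts in 1 library, 335 (4.11%) were higher and 388 (4.76%) lower, together 8.86%. The counting interval lay wholly beyond 2-fold for 430 genes upward (2.64%) and 471 downward (2.9%). Genes called lower held 10.1% of the counts at 0 psu and 4.31% at 16 psu, and genes called higher held 1.23% and 3.99%. The counts of list members given below stand against 5.86% higher and 5.36% lower over all genes. All lists, the marker lists above included, hold only genes with a symbol. Of the 11321 measured genes with a symbol 983 were called, against 1826 of all 16267. The shares over all genes thus include genes that no list could hold.

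**Figure D2:**
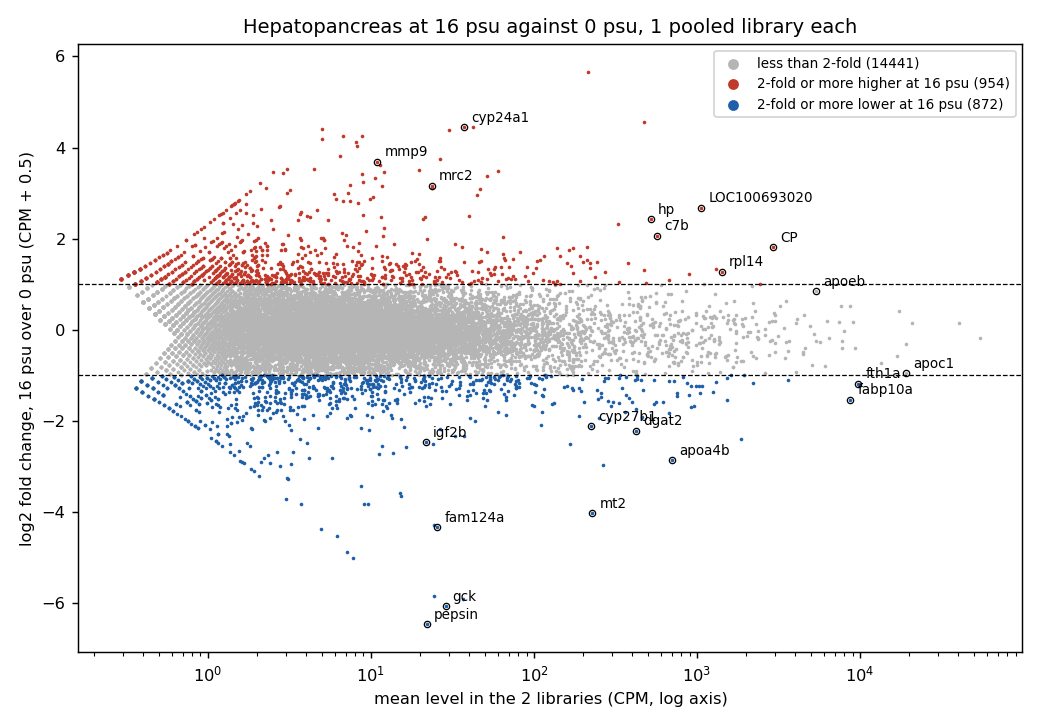
Log2 fold change of each measured gene (16 psu over 0 psu, CPM + 0.5) against its mean level in the 2 libraries (CPM, log axis), 1 point per gene. Red genes (954) were at least 2-fold higher and blue genes (872) at least 2-fold lower at 16 psu, the dashed lines mark 2-fold, and circled genes are named in the text. Most genes lie between the lines, and the largest differences reach -6.47 for pepsin.

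On the log2(CPM + 0.5) scale the named gene with the largest difference upward was cyp24a1 (LOC100690876), the 24-hydroxylase that degrades active vitamin D, with 39 counts at 0 psu and 1219 at 16 psu, a log2 ratio of 4.68 (4.22 to 5.17). The gelatinase gene mmp9, which cleaves denatured collagen and is abundant in neutrophils, had 16 and 353 counts, a log2 ratio of 4.17 (3.45 to 5.00). The endocytic collagen receptor gene mrc2 had 60 and 726 counts, 9.89-fold. The p53 target zmat3, an RNA-binding zinc finger gene, had 18 and 208 counts, 9.45-fold. The calcium-binding protein gene calua of the secretory pathway had 19 and 161 counts, 6.93-fold, and a gene listed as granzyme, a protease of cytotoxic lymphocytes, had 30 and 188 counts, 5.12-fold. Each of these 6 genes had at most 60 counts at 0 psu and at least 161 at 16 psu.

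The named genes with the largest differences downward included, besides pepsin and tmprss15, several metabolic and hormone genes. The zinc transporter gene slc30a8, which loads zinc into the insulin granules of islet beta cells, had 171 counts at 0 psu and 1 at 16 psu, a log2 ratio of -7.71 (-13.0 to -5.21). It was 1 of the 2 islet loci called lower, and the other was gck. The metallothionein gene mt2, which binds zinc and copper, had 5965 and 441 counts, 16.5-fold lower. The activin subunit gene inhbab had 241 and 13 counts, 22.7-fold lower, and fam124a had 681 and 33 counts, 25.2-fold lower. Mitochondrial 10-formyltetrahydrofolate dehydrogenase (aldh1l2) had 395 and 74 counts, 6.53-fold lower. The unconventional myosin gene myo15b had 101 and 15 counts, zgc:92242 had 573 and 117, and the actin-linked adaptor gene sorbs2a had 870 and 204, that is 8.24-fold, 5.99-fold and 5.22-fold lower.

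Some of the largest differences belonged to genes without a symbol. Among genes with at least 100 counts, 42 unnamed genes lay above the 15th named gene upward and 16 below the 15th downward. LOC100708849 had 108 counts at 0 psu and 7134 at 16 psu, 54.0-fold, and LOC100692275 had 528 and 15320 counts, 23.7-fold. LOC100706176 had 1009 and 12 counts, 103-fold lower, and LOC102080419 had 673 and 6 counts, 137-fold lower. These 4 genes were chosen after their values were seen.

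The largest differences in CPM were in abundant transcripts of liver, exocrine pancreas and unnamed loci. The largest gain was that of LOC100706723, at 14803 CPM at 0 psu and 19698 CPM at 16 psu, followed by the hemopexin gene hpxa at 38570 and 42550 CPM. Ceruloplasmin (CP), the copper ferroxidase of plasma, was at 1284 CPM at 0 psu and 4522 CPM at 16 psu. The complement component gene C5 was at 1628 and 3267 CPM, the fibrinogen alpha chain gene fga at 7156 and 10295 CPM, and the apolipoprotein E gene apoeb at 3843 and 6892 CPM. Trypsin (prss1) was at 6306 and 9004 CPM. The unnamed gene LOC100693020 was at 286 and 1830 CPM, 6.41-fold higher. Downward, apolipoprotein C-I (apoc1) was at 25140 CPM at 0 psu and 12951 CPM at 16 psu. The liver fatty acid binding protein gene fabp10a was at 12929 and 4456 CPM, the ferritin heavy chain gene fth1a, which stores iron, at 13544 and 5951 CPM, and gapdh of glycolysis at 6421 and 3779 CPM. Of these 10 named genes, CP, C5, fabp10a and fth1a passed the 2-fold limit. C5 lay barely past it, at a log2 fold change of 1.005.

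The genes gck of glucose phosphorylation and pck1 of gluconeogenesis differed in opposite directions, whereas the medians of both pathway lists lay slightly above 0. Glucokinase (gck), which traps glucose in the liver cell, had 791 counts at 0 psu and 6 at 16 psu, 57.0 and 0.353 CPM, a log2 ratio of -7.33 (-8.78 to -6.20). Phosphoenolpyruvate carboxykinase (pck1, LOC100696099), the cytosolic entry enzyme of gluconeogenesis, had 18 and 280 counts, a log2 ratio of 3.67 (2.98 to 4.44). Pyruvate carboxylase (PC), which makes oxaloacetate for that pathway, had 1714 and 4388 counts, 2.09-fold higher. The mitochondrial form pck2 had 10010 and 14047 counts and fructose bisphosphatase fbp1b 13745 and 11151, and neither reached 2-fold. Over the lists, 4 of 31 glycolysis genes were higher and 3 lower (median 0.21), and 3 of 21 genes of gluconeogenesis and glycogen were higher and 0 lower (median 0.14). The higher glycolysis genes were pkm, ldha, gapdhs and pgam2, the muscle phosphoglycerate mutase, and the third higher gene of the other list was pygma, a muscle glycogen phosphorylase. Both pgam2 and pygma are also members of the muscle list.

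Genes of the insulin-like growth factor axis differed in both directions. The binding protein gene igfbp1a (LOC100702579, listed in the files as a non-coding RNA), whose product binds IGFs in plasma and is raised in fasting, had 22 counts at 0 psu and 382 at 16 psu, a log2 ratio of 3.83 (3.21 to 4.52). The growth factor gene igf2b had 516 and 107 counts, 5.90-fold lower. Of 20 measured genes, 3 were higher (igfbp1a, igf1rb and igfbp5a) and 2 lower (igf2b and the insulin receptor gene insrb, with 115 and 58 counts). The other insulin receptor locus, insr, had 446 and 629 counts, and the acid-labile subunit gene igfals 7654 and 5027. The receptor gene igf1rb had 6 and 39 counts and igfbp5a had 1 and 15, so both rest on few reads.

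Fat synthesis genes were lower at 16 psu or within 2-fold, with 1 exception. Of 25 measured fatty acid synthesis genes 5 were lower and 1 higher (median -0.42), and 18 lay below 0. ATP citrate lyase (aclya), which supplies cytosolic acetyl-CoA, had 4237 counts at 0 psu and 1713 at 16 psu, a log2 ratio of -1.60 (-1.68 to -1.52), and its paralog aclyb had 179 and 97. Acetyl-CoA carboxylase (acaca), the committed step, was also among the 5 called lower, but lay barely past the 2-fold limit. Its paralog acacb was within 2-fold, with a log2 fold change of -0.42. Both acaca and aclyb passed the limit by less than 0.15, the log2 shift with total counts. The elongase gene elovl1b had 646 and 251 counts, 3.15-fold lower. The stearoyl-CoA desaturase gene scd, which makes oleate, had 232694 and 172372 counts, 1.65-fold lower. The second desaturase locus, scdb, had 197 counts at 0 psu and 0 at 16 psu, at least 80.3-fold lower. Reads of the 2 desaturase loci could have been split between them in counting. The lipogenic regulator gene thrsp had 107833 and 75482 counts, and the transcription factor gene srebf1 1487 and 1171. The 1 higher gene was the acyl-CoA thioesterase gene acot7, with 0 and 20 counts.

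Among triglyceride assembly genes, the acyltransferase genes dgat2 and mogat2 showed the largest differences. The acyltransferase genes mogat3a and mogat3b were within 2-fold, with log2 fold changes of -0.13 and -0.63. Diacylglycerol acyltransferase 2 (dgat2), the last step of triglyceride synthesis, had 9616 counts at 0 psu and 2521 at 16 psu, 693 and 148 CPM, a log2 ratio of -2.22 (-2.29 to -2.16). Monoacylglycerol acyltransferase (mogat2), best known from the intestine, had 366 and 96 counts, 4.66-fold lower. The phosphatidate phosphatase gene lpin1a had 490 and 187 counts, 3.21-fold lower. These were the 3 genes called lower of 28 measured, with 0 called higher (median -0.32). The lipid droplet coat gene plin2 had 1160 and 1129 counts and the triglyceride lipase gene pnpla2 864 and 924.

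Carriers of lipid in plasma and cytosol were lower or within 2-fold. Of 27 measured genes 7 were lower and 0 higher (median -0.43). Apolipoprotein A-IV (apoa4b) had 17110 counts at 0 psu and 2874 at 16 psu, 1233 and 169 CPM, a log2 ratio of -2.86 (-2.92 to -2.81), and its paralog apoa4a had 83 and 3. The cytosolic fatty acid binding protein genes fabp10a and fabp3 had 179465 and 75667 counts and 25025 and 11895 counts, 2.90-fold and 2.57-fold lower. Endothelial lipase (lipg) had 2273 and 1126 counts, 2.47-fold lower. The other 2 called lower were fabp2 and fabp4b, with at most 23 counts. Of these 7, apoa4a, apoa4b and fabp2 are also enterocyte markers. The microsomal transfer protein gene mttp, which loads lipid onto apolipoprotein B, had 1119 and 1332 counts, close to equal after scaling with a log2 fold change of -0.04. On the other side, apoeb was 1.79-fold and the plasma cholesterol acyltransferase gene lcat 1.62-fold higher.

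Fatty acid oxidation genes had 0 higher and 3 lower of 36 measured (8.33% against 5.36% of all genes, median -0.21), among them the acyl-CoA synthetase gene acsl5 with 84 and 0 counts and 1 of 2 loci with the symbol ppara. The nuclear receptor PPAR alpha drives this pathway in liver. Its 2 loci differed in opposite directions, one with 249 and 99 counts (3.08-fold lower) and the other with 665 and 1199 (1.47-fold higher). The carnitine palmitoyltransferase gene cpt1ab, the gate of mitochondrial oxidation, had 121 and 202 counts.

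Sterol synthesis genes were higher at 16 psu in part. Of 23 measured genes 6 (26.1%) were higher, 1 was lower and 16 were within 2-fold, and 19 lay above 0, with a median of 0.67. The enzymes from squalene onward had the largest values. Squalene epoxidase (sqle), a rate-limiting step, had 1076 counts at 0 psu and 4559 at 16 psu, a log2 ratio of 1.79 (1.70 to 1.89), and lanosterol synthase (lss) had 854 and 3667, a log2 ratio of 1.81 (1.70 to 1.92). Squalene synthase (fdft1) was 2.58-fold, lanosterol demethylase (cyp51) 2.12-fold and the sterol 14-reductase gene tm7sf2 2.03-fold higher. HMG-CoA reductase (hmgcra), the classic control point, had 38848 and 54248 counts, 1.14-fold higher, and the synthase gene hmgcs1 2042 and 4016, 1.61-fold. The lower gene was faxdc2, a hydroxylase-family member, with 15286 and 9046 counts. With a log2 fold change of -1.05, faxdc2 passed the limit by less than 0.15, the log2 shift with total counts. The transcription factor gene srebf2 was 1.98-fold higher and insig1 1.85-fold, neither past the limit. The list of sterol sensing and uptake, in which srebf2 had the highest value, showed no such rise. Of its 18 measured genes 0 were higher and 1 was lower, with 9 above and 9 below 0. Its median was -0.15. Cholesterol 7-alpha-hydroxylase (cyp7a1), which starts bile acid synthesis, was 1.26-fold higher, the bile salt export pump gene abcb11b 2.20-fold lower, and the lysosomal cholesterol exporter gene npc1 2.42-fold lower.

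**Figure D3:**
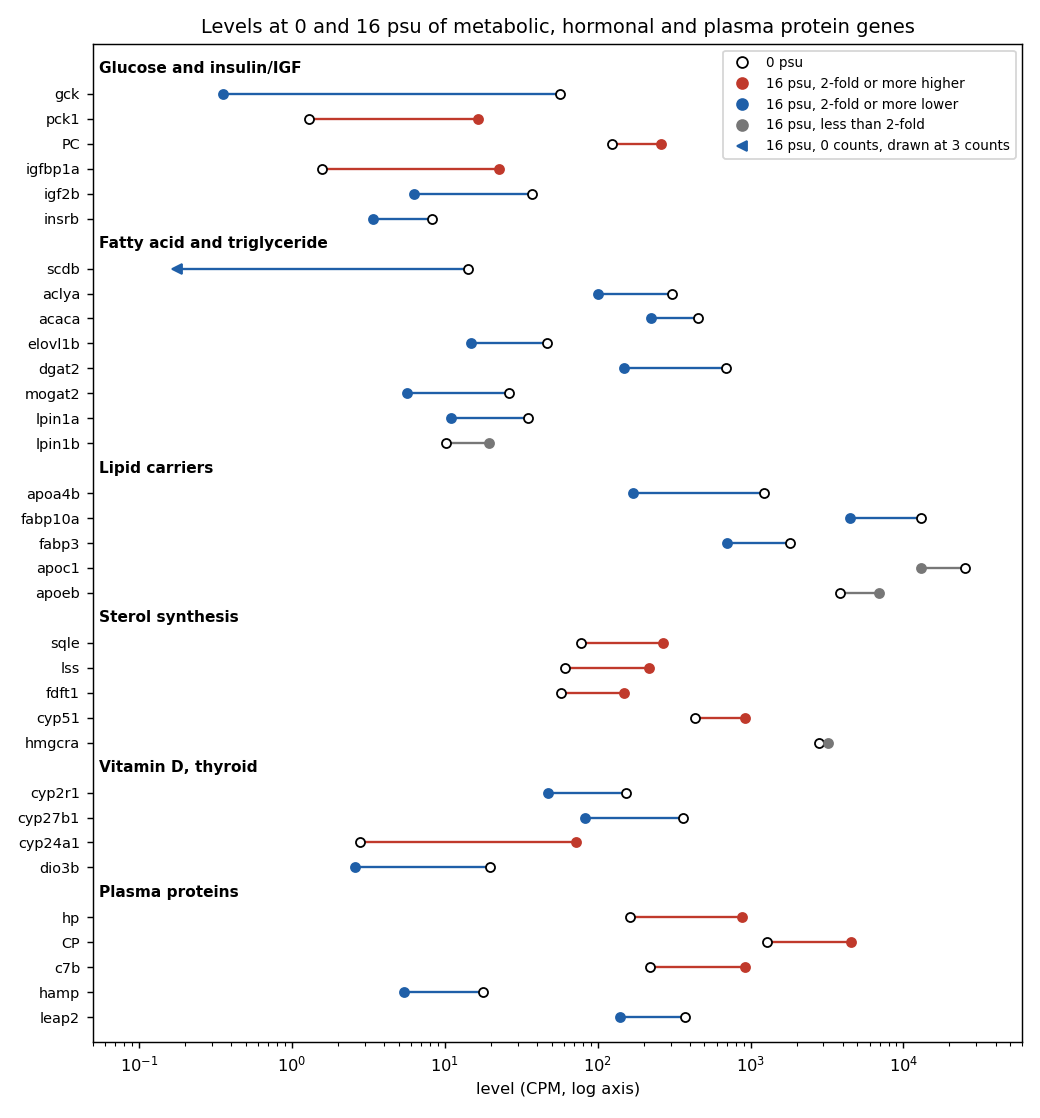
Levels (CPM, log axis) of 33 genes at 0 psu (open circles) and 16 psu (filled, red when called higher, blue when called lower and grey when within 2-fold), 1 library per point and 1 line per gene. The arrow marks a gene with 0 counts at 16 psu, drawn at the level of 3 counts. Glucokinase (gck) lies at 57.0 and 0.353 CPM and cyp24a1 at 2.81 and 71.8 CPM, the 2 longest lines with counts at both ends.

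Vitamin D enzymes differed at the steps of activation and degradation. The 25-hydroxylase gene cyp2r1, which starts activation in the liver, had 2122 counts at 0 psu and 802 at 16 psu, 3.24-fold lower. The 1-alpha-hydroxylase gene cyp27b1, which makes the active hormone, had 5034 and 1414 counts, 363 and 83.3 CPM, 4.35-fold lower. The degrading enzyme gene cyp24a1 was at 2.81 and 71.8 CPM, 25.6-fold higher. The retinoid X receptor gene rxrgb, whose product pairs with the vitamin D and thyroid hormone receptors, had 1309 and 451 counts, 3.55-fold lower.

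Thyroid and steroid hormone genes on the same list were lower where they passed the limit. Type 3 deiodinase (dio3b), which inactivates thyroid hormone, had 276 and 44 counts, a log2 ratio of -2.94 (-3.43 to -2.48). The hormone-induced transcription factor gene klf9 had 493 and 237 counts, 2.54-fold lower, and the estrogen receptor gene esr2a 412 and 168, 3.00-fold lower. In all, 6 of 19 genes were lower and 1 higher (median -0.43). The genes tsc22d3 and fkbp5, 2 of those that glucocorticoids induce, were within 2-fold: tsc22d3 had 3766 and 8169 counts, 1.77-fold higher, and fkbp5 1097 and 994, 1.35-fold lower. The yolk precursor genes, which estrogen induces in liver, had 6407 and 1965 counts for vtg (3.99-fold lower) and 13016 and 15883 for vtg3 (1.00-fold), and vtg was named after its values were seen. Of the retinoic acid degrading enzymes, cyp26a1 had 184 and 659 counts, 2.93-fold higher, and cyp26b1 53 and 10, 6.48-fold lower.

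Chaperones of the endoplasmic reticulum (ER), which fold secreted proteins, were higher in part. Of 46 measured genes 9 (19.6%) were higher, 0 lower and 37 within 2-fold, 34 lay above 0, and the median was 0.40. Calreticulin (calr) had 120 counts at 0 psu and 605 at 16 psu, a log2 ratio of 2.04 (1.76 to 2.34). The ER form of HSP90 (hsp90b1) had 1303 and 4878 counts, 3.06-fold higher. Disulfide isomerases pdia6 and pdia4 had 470 and 1686 counts and 1165 and 3970 counts, 2.93-fold and 2.79-fold. The others past the limit were calr3b (2.57-fold), hyou1 (2.49-fold), dnajb11 (2.46-fold), the glycoprotein folding sensor gene uggt1 (2.08-fold) and xbp1, a transcription factor of the unfolded protein response, with 2240 and 6564 counts (2.40-fold). Stress sensors and effectors of the same response were within 2-fold: ern1 had 770 and 633 counts, 1.49-fold lower, and the proapoptotic factor gene ddit3 2541 and 3155, 1.02-fold higher. The 45 measured genes of ER translocation and export had 0 calls and a median of 0.20. The 37 cytosolic heat shock genes also had 0 calls, with a median of -0.04 that became 0.10 with total counts.

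Ribosomal protein genes were lower at 16 psu in part. Of 74 measured genes 30 (40.5%) were lower, 1 higher and 43 within 2-fold, 66 lay below 0, and the median was -0.77 with TMM and -0.62 with total counts. Together they went from 76943 CPM at 0 psu to 49422 CPM at 16 psu. The large subunit gene rpl35a had 5533 and 1764 counts, a log2 ratio of -1.94 (-2.02 to -1.86), rpl13a had 10024 and 3266, and the small subunit genes rps23 and rps10 had 14618 and 5001 and 7832 and 2731. The exception was rpl14, with 11543 and 34071 counts, 2.41-fold higher. Mitochondrial ribosomal proteins had 9 of 73 lower and 0 higher (median -0.41), led by mrps28 with 261 and 86 counts. The 22 aminoacyl-tRNA synthetases, which are large cytosolic and mitochondrial enzymes of translation, had 0 calls, and of 41 initiation factor genes 1 was higher and 2 were lower. The medians of the last 2 lists, -0.06 and -0.04, changed sign with total counts.

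Nuclear genes of the respiratory chain were lower in part. Of 36 complex I genes 8 were lower and 0 higher (median -0.48), of 26 genes of complexes II to IV 7 were lower and 0 higher (-0.48), and of 11 ATP synthase genes 2 were lower and 0 higher (-0.52). Among the genes called lower, cox7b had 2412 counts at 0 psu and 835 at 16 psu, 3.53-fold lower, ndufa4a 5867 and 2438, 2.94-fold lower, and atp5pd 1096 and 584, 2.30-fold lower. The 13 mitochondrially encoded genes had 0 calls and a median of -0.32. Proteasome genes had 3 lower of 48 and 0 higher (median -0.36), namely psmb6, psmb4 and psmb12, which is 6.25% lower against 5.36% of all genes. Whether transcript length or RNA quality had a part in these differences was not tested.

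**Figure D4:**
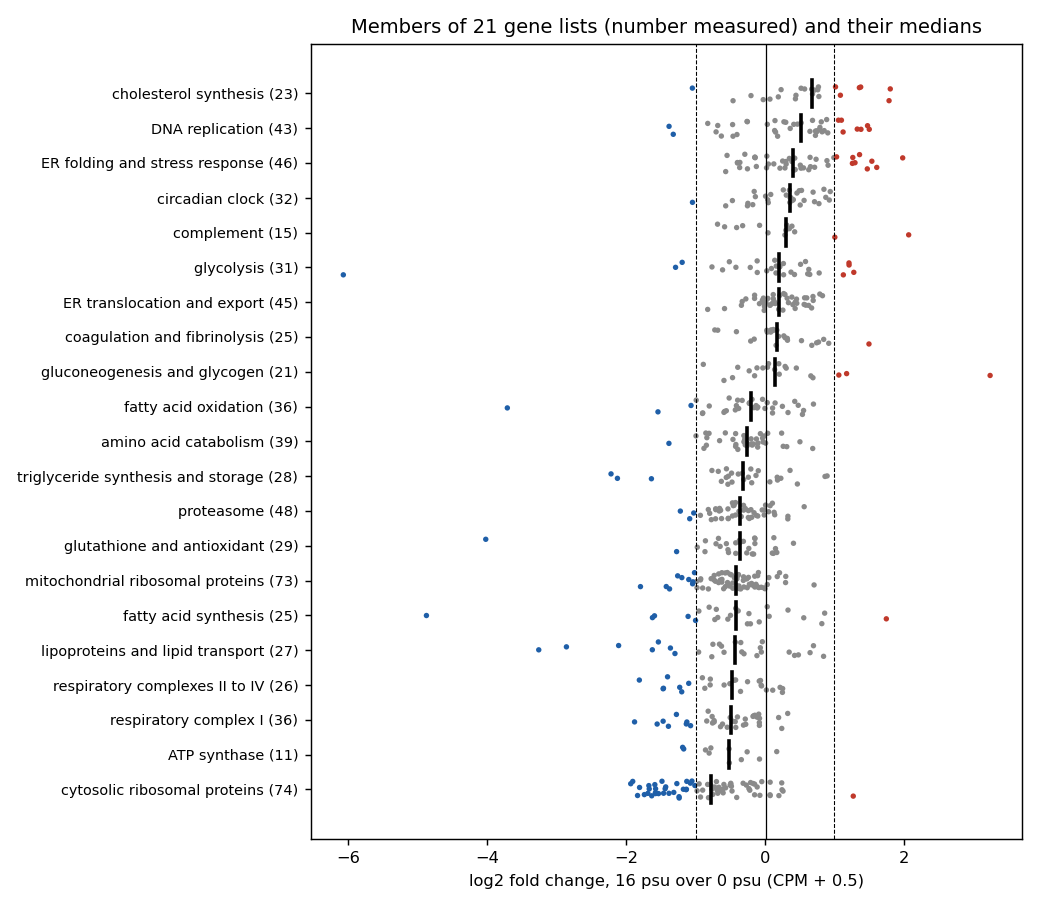
Log2 fold change (16 psu over 0 psu, CPM + 0.5) of the measured members of 21 gene lists, 1 point per gene, ordered by median. Thick black marks are list medians, the thin solid line is the median of all genes measured (0.01), dashed lines mark 2-fold, and red and blue points were called higher and lower. Cholesterol synthesis has the highest median (0.67) and cytosolic ribosomal proteins the lowest (-0.77).

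Plasma proteins made in the liver were mostly within 2-fold, with some larger differences. Haptoglobin (hp), which binds free hemoglobin, had 2254 counts at 0 psu and 14909 at 16 psu, 162 and 878 CPM, a log2 ratio of 2.43 (2.37 to 2.50). Ceruloplasmin (CP) had 17820 and 76778 counts, 3.52-fold higher. The iron regulatory hormone gene hamp and the antimicrobial peptide gene leap2 had 248 and 92 counts and 5145 and 2394 counts, 3.30-fold and 2.63-fold lower. Hemopexin (hpxa), which binds free heme and had the most counts of the group, had 535402 and 722469, a log2 ratio of 0.14. Of 15 complement genes 2 were higher and 0 lower (median 0.30), the terminal pathway genes c7b with 3045 and 15650 counts (4.20-fold) and C5 with 22592 and 55468 (2.01-fold). Of 25 coagulation and fibrinolysis genes 1 was higher, the antiplasmin gene serpinf2a with 1753 and 6066 counts (2.83-fold), and the median was 0.17.

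Enzymes of amino acid breakdown were within 2-fold with 1 exception. Of 39 measured genes 1 was lower (gcdha, with 56 and 21 counts) and 0 higher, and 32 lay below 0, with a median of -0.26. Tyrosine aminotransferase (tat), a glucocorticoid-induced enzyme, had 11837 and 8274 counts, 1.75-fold lower, and aspartate aminotransferase got1 1866 and 1236, 1.85-fold lower. In the arginine and polyamine list ornithine transcarbamylase (otc), a urea cycle enzyme, had 10 counts at 0 psu and 115 at 16 psu, a log2 ratio of 3.23 (2.30 to 4.33). The antizyme genes oaz2a and oaz1a, whose products restrain polyamine synthesis, were 2.28-fold and 1.98-fold higher. Of this list 3 of 28 were higher and 1 lower (median 0.04).

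Of the genes for osmolytes 1 of 13 was called, and of those for ion and water transport 4 of 29, where 11.2% of all genes were. Betaine-homocysteine methyltransferase (bhmt), which consumes the osmolyte betaine, had 10358 counts at 0 psu and 5914 at 16 psu, 2.14-fold lower, and was the 1 gene called of 13 (7.69% lower against 5.36% of all genes). With a log2 fold change of -1.10, bhmt passed the limit by less than 0.15, the log2 shift with total counts. Inositol oxygenase (miox), which degrades the osmolyte myo-inositol, had 5170 and 3446 counts, 1.84-fold lower, and the taurine synthesis gene cdo1 9381 and 7309. The median of the osmolyte list was -0.37. Among 29 measured genes of ion and water transport 3 (10.3%) were lower and 1 (3.45%) higher. The aquaporin gene aqp12, known from pancreatic acinar cells, had 202 and 102 counts, 2.42-fold lower, the cotransporter gene slc12a1 12 and 1, the muscle calcium pump gene atp2a1 13 and 3, and the sodium pump gene atp1a3a 2 and 22. The salt- and glucocorticoid-induced kinase gene sgk1 had 2158 and 3697 counts, 1.40-fold higher. The median of this list, -0.08, became 0.04 with total counts.

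Antioxidant genes had 2 lower of 29 and 0 higher (6.90% against 5.36% of all genes, median -0.36), mt2 and the microsomal glutathione transferase gene mgst3b with 3732 and 1883 counts. Lysosomal and autophagy genes had 3 lower of 36 and 0 higher (8.33%, median -0.18), the cathepsin genes ctsz (1393 and 665 counts) and ctsk (86 and 27) and the hexosaminidase gene hexa (743 and 447). Of these, hexa lay barely past the limit, with a log2 fold change of -1.01.

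DNA replication genes were higher in part, at low counts. Of 43 measured genes 7 were higher and 2 lower, 32 lay above 0, and the median was 0.52. The helicase subunit genes mcm3, mcm4, mcm5 and mcm6, which license replication origins, had 27 and 107, 31 and 108, 23 and 70, and 18 and 58 counts, 3.24-fold, 2.85-fold, 2.49-fold and 2.63-fold higher. The clamp gene pcna had 255 and 188 counts, 1.66-fold lower, and the clamp loader gene rfc2 131 and 59, 2.72-fold lower. The mitosis list, which also holds other cell cycle genes such as cdk4, had 3 higher and 3 lower of 50. The cell cycle kinase genes cdk4 and cdk2 had 299 and 140 and 112 and 50 counts, 2.61-fold and 2.74-fold lower.

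Clock genes had 1 lower of 32 and 0 higher, with a median of 0.36 and 24 genes above 0. The lower gene was the output factor hlfa, with 1013 and 596 counts. With a log2 fold change of -1.05, hlfa passed the limit by less than 0.15, the log2 shift with total counts. The repressor genes nr1d2b, bhlhe40 and per3 had 310 and 728, 189 and 451, and 1214 and 2730 counts, 1.92-fold, 1.95-fold and 1.84-fold higher. Hypoxia and growth arrest genes had 4 higher and 1 lower of 23 (median 0.22), among them the oxygen sensor gene egln3 with 268 and 941 counts (2.87-fold), the mTOR inhibitor gene ddit4 with 598 and 1625 (2.22-fold) and erythropoietin (epoa) with 31 and 104 (2.74-fold). Immediate early genes were split, 3 higher and 3 lower of 27. The transcription factor genes egr1 and fosab had 117 and 405 and 92 and 323 counts, 2.83-fold and 2.87-fold higher, and jun had 203 and 76, 3.27-fold lower.

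Matrix genes had calls in both directions and junction genes in 1. Of 50 collagen, matrix and integrin genes 8 were lower and 4 higher, with a median of 0.03. The fibril-associated collagen gene col12a1 and the basement membrane gene col18a1a had 60 and 15 and 44 and 11 counts, each 4.89-fold lower, and the laminin receptor gene itga6 85 and 31. Higher were mmp9 and the collagenase gene mmp13a with 0 and 44 counts, and the 2 cartilage collagen genes col11a1a and col11a1b, which had 4 counts each at 0 psu. Of 28 junction genes 4 were lower and 0 higher: the claudin gene cldn15a, which forms paracellular sodium channels in the gut, with 100 and 27 counts, the connexin genes gja1b and gjb8 with 166 and 65 and 135 and 69, and the desmosome gene pkp2 with 25 and 9.

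Teleost genomes hold many duplicated genes, and 641 pairs of symbols that differ in a final a or b were measured. Many such pairs are distinct genes or subunits in all vertebrates, such as sdha and sdhb or hexa and hexb, so the pairs are not a count of duplicated copies. In 551 pairs neither gene was called, in 81 pairs 1 was, and in 9 both. Of the 1282 paired genes 99 (7.72%) were called. Pairs hold only genes with a symbol, of which 983 of 11321 were called, against 11.2% of all genes. Both genes were higher in 5 pairs, among them the muscle genes ckma and ckmb and mylpfa and mylpfb, and lower in 3, aclya and aclyb, apoa4a and apoa4b, and zbtb16a and zbtb16b. Opposite calls occurred in 1 pair, the glutamine synthetase genes, which fix ammonia: glula had 1438 counts at 0 psu and 863 at 16 psu and glulb had 1 and 13. The lipin genes lay on opposite sides of 0, with log2 fold changes of -1.64 for lpin1a and 0.89 for lpin1b, which had 142 and 330 counts. The treatment of reads that match both genes of a pair is not given in the sources used here.

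**Figure D5:**
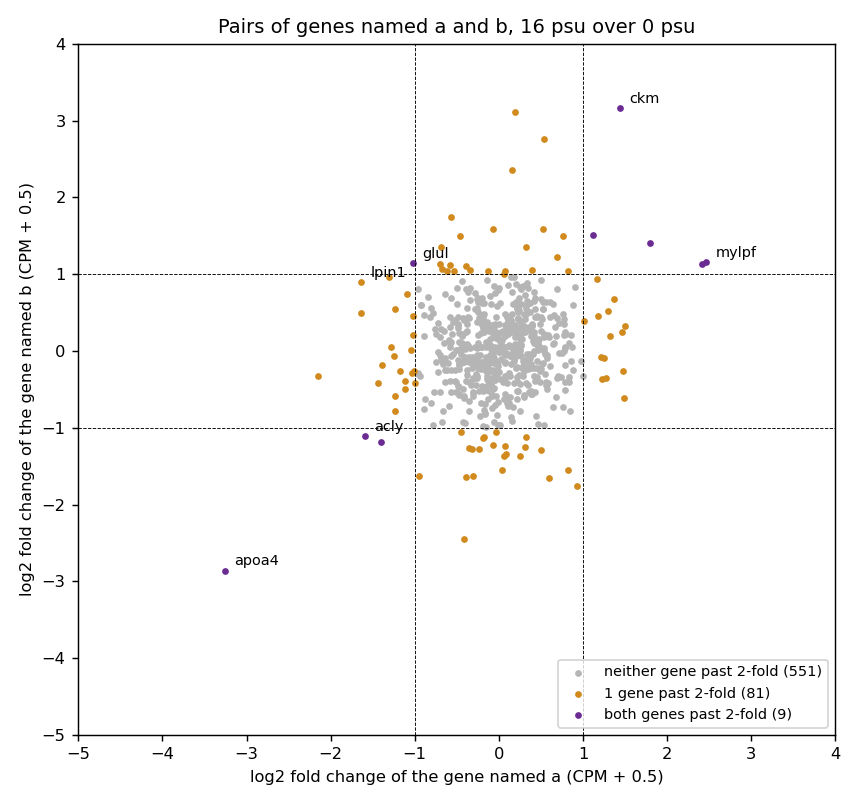
Log2 fold change (16 psu over 0 psu, CPM + 0.5) of the gene named b against that of the gene named a, 1 point per pair (641 pairs). Dashed lines mark 2-fold, and colours mark how many genes of a pair passed it. The 9 pairs with both genes past 2-fold lie in 3 corners. The 1 pair of opposite calls is glula and glulb, with glula barely past 2-fold.

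At 8 psu, a salinity between the 2 compared here, the library of 13628578 counts gave intermediate values for some of these genes and values near 1 end for others. For cyp24a1 the raw counts at 0, 8 and 16 psu were 39, 790 and 1219, and for sqle 1076, 2030 and 4559. For gck they were 791, 34 and 6, so that the 8 psu count lay far under that at 0 psu but still above that at 16 psu. For mt2 they were 5965, 621 and 441, and for rpl35a 5533, 1735 and 1764, so that the 8 psu count lay near that at 16 psu. For igfbp1a they were 22, 10 and 382, for pck1 18, 8 and 280, for calr 120, 70 and 605, for hp 2254, 1621 and 14909, and for acta1b 62, 17 and 724, so that the 8 psu count lay near or under that at 0 psu. The pepsin counts were 609, 0 and 0.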

How the data were processed

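RNA-Seq of hepatopancreas gave 1 pooled library of 8 fish per salinity (3 libraries in the series, 2 compared here). Per the labels and methods, the authors took RNA of high integrity, used the Ion Total RNA-Seq kit and an Ion Proton for single-end sequencing, mapped reads with MapSplice to Orenil1.1 and counted reads per gene, and the submitters' processing notes name HTSeq. The table deposited by the authors holds raw counts of reads per gene without normalization. The strand setting is not given in the sources used here. Totals were 14627514 counts at 0 psu and 16112951 at 16 psu.

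Genes that reached 10 counts in either library were kept. Libraries were scaled by TMM over the 2 libraries with edgeR 4.0.16 in R 4.3.3. All else was computed in Python 3.11.15 with numpy 2.4.6, pandas 2.3.3, scipy 1.17.1 and matplotlib 3.10.9. Calls used log2(CPM + 0.5) and a 2-fold limit. With 1 library per salinity there is no residual degree of freedom, so no test was run. The exact intervals (95%) and the floor of 3 counts cover counting error only, since reads without molecular identifiers are not independent molecules. The scaling and fold calculations were tested on simulated data.

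Symbols came from a RefSeq table of another assembly (O_niloticus_UMD_NMBU), so no coordinate or length was used. It held 23652 of 27855 locus numbers, and 11321 of the 16267 kept genes had a symbol. Named genes are the 15 highest and 15 lowest log2 fold changes with at least 100 counts and a symbol, the 10 largest gains and losses in CPM, list members, and duplicate pairs with opposite calls and at least 100 counts in both, of which there were 0. There were 55 gene lists, 11 of them of cell type markers, matched by symbol with or without a final a or b. The comparison and the lists were chosen with earlier results of these data known. Alternatives were total counts, the upper quartile, TMM over 3 libraries, size factors of DESeq2 1.42.0, count minimums of 1 and 100, pseudocounts of 0.1 and 2 CPM, fold limits of 1.5 and 4, and calls by the counting interval. The marker lists without their most abundant loci, and the count of genes without markers, were chosen after seeing the data. Results of 2 listed genes are not reported here.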

Additional observations from a re-analysis of the deposited data

Results flagged for a closer look

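The library at 8 psu, which the comparison of 0 and 16 psu does not use, held 1 gene with at least 100 counts that had fewer than 10 in both other libraries. LOC102082407, a locus of the miscellaneous RNA type without a symbol, had 0 counts at 0 psu, 1497 counts at 8 psu and 2 counts at 16 psu. In all, 306 genes reached 10 counts at 8 psu only.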

How the results depend on the processing

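The number of genes past 2-fold (1826, with 954 higher and 872 lower) stayed within 1.5 times under DESeq2 size factors (948 and 880), the upper quartile (988 and 839), TMM over 3 libraries (959 and 872), total counts (1243 and 665) and a count minimum of 1 (971 and 923). A count minimum of 100 left 724 genes (356 higher, 368 lower) because fewer genes were measured. A pseudocount of 2 CPM left 729 (326 and 403), and one of 0.1 CPM gave 1485 higher and 1238 lower. A fold limit of 1.5 gave 4975 (2555 and 2420), one of 4 gave 212 (114 and 98), and 901 genes (430 and 471) had a counting interval wholly beyond 2-fold. Requiring the interval to exclude equality left all 1826. That rule had little room to remove a call, since the count minimum and the pseudocount already demand very uneven counts. Subtracting the muscle and enterocyte markers themselves, chosen after seeing the data, left 1795 (931 and 864), which says nothing of their RNA's part in other genes. Of the 50 genes named for the largest differences in fold or CPM, none changed sign in 400 values under the alternatives. Of the 36 called, 2 values fell within 2-fold, 1 with DESeq2 size factors and 1 with total counts. Genes picked for large differences left this check little room to fail. List members near the limit, such as hlfa, hexa and glula (log2 fold changes of -1.05, -1.01 and -1.02), were outside it. The medians of 16 of 54 lists changed sign under an alternative, none of them further than 0.30 from 0. No replicate could be left out with 1 library per salinity. No paired analysis was possible because the 2 groups hold 1 library each. A gene had to reach 10 counts in either library to be measured. The floor of 3 counts, about 0.2 CPM, was only the bound set for a count of 0. The spread between fish, tanks and library preparations cannot be told apart from that between salinities.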

Other observations

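Genes of the immune surface of the tissue showed few differences. Of 21 genes of antigen presentation and interferon response 0 passed 2-fold, and the median of -0.01 changed sign with total counts. Of 19 measured leukocyte markers the T cell kinase gene zap70 passed, with 41 counts at 0 psu and 118 at 16 psu, 2.35-fold higher. Of the neutrophil markers, myeloperoxidase (mpx) had 245 and 479 counts, 1.60-fold higher, and the receptor gene csf3r 38 and 99, a plain ratio of 2.13 that was under 2-fold with the pseudocount of 0.5 CPM. The leptin gene lepa, which fish express in liver, had 5 counts at 0 psu and 44 at 16 psu, a log2 ratio of 2.85 (1.52 to 4.54).

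By RNA type, 881 of 15632 protein-coding genes were higher and 806 lower, with a median of 0.00. Of 106 non-coding RNA genes 15 were higher and 9 lower, with a median of 0.25, and of 511 miscellaneous RNA genes 55 were higher and 54 lower, with a median of 0.05.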
